A study of Caenorhabditis elegans with 8 samples.

Results

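The genes described here belong to 5 families of Caenorhabditis elegans chemoreceptors, srw, srz, srbc, srsx and srr, which are called solo families because they stand outside the large chemoreceptor superfamilies. They were chosen by name. Every non-control probe of the array was mapped through the name of its target to a gene, and genes whose symbol was one of the 5 prefixes with a number were kept. The array carried 508 probes for 373 such genes, of 384 in the RefSeq gene table. A gene was measured, and so entered the results, where at least 1 probe was well above background, by the scanner software's own test, on all 4 arrays of a genotype. This left 33 genes with 39 probes, among 18313 genes and unnamed targets measured in the whole data set.

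Whole hermaphrodite larvae of 2 genotypes were compared, 4 samples each. N2 is the wild type. aptf-1(gk794) carries a deletion in aptf-1, which encodes an AP2 transcription factor that the study examined for its role in sleep, and the study states that its deletion strains were backcrossed to N2. All animals were labelled as L4 larvae in sleep and grew at 21.5 °C on the bacterium OP50. The labels name no transgene and no treatment. About 200 animals were pooled for each sample, and 200 ng of total RNA was amplified, labelled with Cy3 and hybridized to 1 single-color array. The study describes the mutant as lacking normal sleep behavior, so genotype and behavioral state cannot be told apart here. In RNA of whole animals, fewer cells of a type and less RNA per cell cannot be told apart either.

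Chemoreceptors of these families are G protein-coupled receptors that cross the membrane several times and sit mostly in the cilia of sensory neurons, where they are thought to detect odors, tastes and pheromones. Each tends to be made in very few neurons, and a single neuron makes many different receptors. srw receptors resemble receptors for neuropeptides in sequence, and srbc-64 and srbc-66 are receptors for ascarosides, the pheromones by which larvae sense crowding. For most other members no ligand is known.

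The arrays and labels were checked first. The 8 arrays lay on 2 slides. N2 occupied positions 1 and 2 of each slide and the mutant positions 3 and 4, with mutant replicates 1 and 3 at position 3 and replicates 2 and 4 at position 4, so that position and genotype cannot be told apart. Both arrays at position 4 read lower than the other 6 for many members, with the counts given below. Signals are given as log2 of the processed intensity minus the array's 75th percentile, so that 0 is the level of the probe at that percentile, and the lowest signals well above background lay between -6.93 and -5.95. The 75th percentile of intensity itself ranged from 317 to 842. Between 72.6% and 80.3% of all targets were well above background on an array, and 0 spots were saturated. The single aptf-1 probe, whose place relative to the deletion was not analysed here, read -5.34, -5.24, -5.18 and -5.58 in N2 replicates 1 to 4 and -5.96, -7.22, -4.29 and -7.13 in the mutant. It was therefore highest on the array labelled as mutant replicate 3, against that label. flp-11, a neuropeptide gene that the study places downstream of aptf-1, lay between 0.45 and 0.60 on the N2 arrays and between -0.71 and -0.64 on all 4 mutant arrays (difference -1.18 ± 0.07 (SE), limma adjusted p = 0.00277). All directions below rest on the labels.

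Few members of the solo families gave a signal. Of the 373 genes on the array, 268 (71.8%) had no probe well above background on any of the 8 arrays, compared with 15.7% of all targets. Another 72 genes were detected on at least 1 array but missed the rule. The 33 measured genes were 8.85% of the families, against 73.5% of all targets. In the srr family 5 of 10 genes were measured and in srsx 7 of 39, whereas srz had 9 of 103, srbc 5 of 83 and srw 7 of 138. Both ascaroside receptors, srbc-64 and srbc-66, were represented by 1 probe each, which was well above background on 0 of the 8 arrays.

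The number of detected members varied as much within a genotype as between genotypes. N2 replicates 1 to 4 had 35, 71, 48 and 58 solo genes with a probe well above background, and mutant replicates 1 to 4 had 71, 33, 44 and 31. The highest count was thus shared by an array of each genotype, and the lowest counts belonged to both arrays at position 4 and to N2 replicate 1. N2 replicate 1 also had the lowest 75th percentile of intensity.

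**Figure D1:**
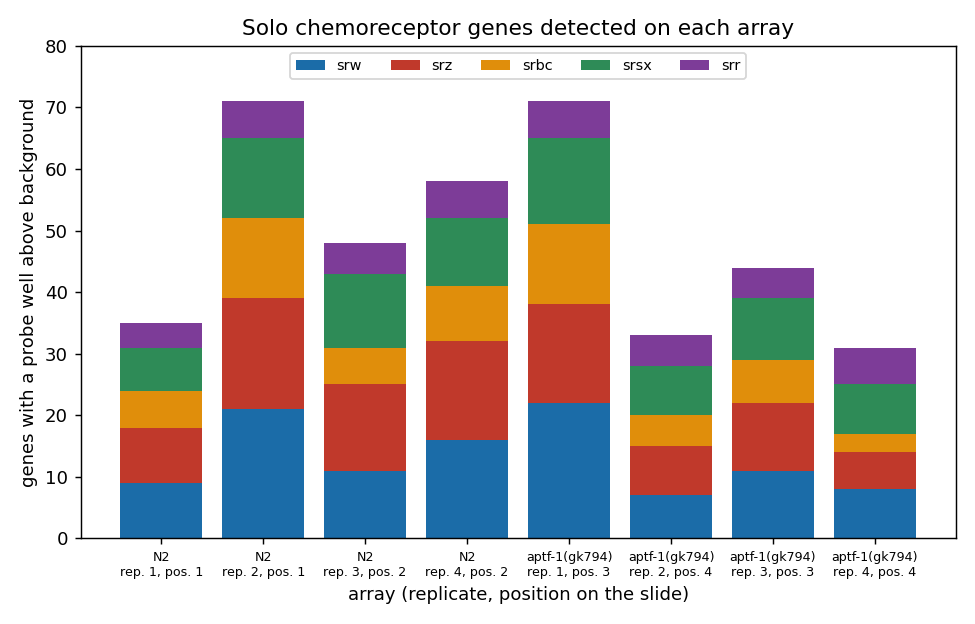
Number of solo chemoreceptor genes with at least 1 probe well above background on each array, stacked by family; the x axis gives genotype, replicate and position on the slide. The counts run from 31 to 71, and 71 is reached once in each genotype.

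Most solo genes lie on chromosome V, with 293 of the 373 genes on the array and 23 of the 33 measured genes. Chromosome IV holds 7 of the measured genes, II holds 2, I holds 1 and III holds 0. The RefSeq table annotates 27 measured genes as protein-coding and 6 as pseudogenes, namely srbc-46, srsx-20, srz-39, srz-50, srz-81 and srz-88. Whether a probe also binds the transcript of a similar family member was not analysed here.

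No measured solo chemoreceptor was called by limma, for which a change of 1.5-fold or more and a Benjamini-Hochberg adjusted p below 0.05 were required. This count of 0 of 33 stood beside 11 of 18313 among all targets tested (0.0601%), of which 8 were lower (0.0437%) and 3 higher (0.0164%) in the mutant. At an unadjusted p under 0.05, 7 of the 33 genes were lower in the mutant and 0 were higher, where 7.75% of all targets were lower and 4.48% higher. Of these 7 genes, 4 passed the filter through the N2 arrays alone, which bears on their direction as described below. Genotypes did not overlap for 4 genes, srz-39, srw-20, srz-82 and srr-6, all lower in the mutant, and for 0 genes higher in the mutant. Over all targets 5% did not overlap and were lower, and 3.1% did not overlap and were higher. Without the array labelled as mutant replicate 3, 10 of 33 genes had an unadjusted p under 0.05 (12.9% of all targets) and 0 were called.

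The differences leaned towards lower signal in the mutant. Of the 33 genes, 26 had a difference below 0 and 7 above 0, with a median of -0.67 and a range from -2.46 to 0.63. Over all targets the median was -0.03, and 54.7% lay below 0. The filter bears directly on this contrast. Of the 33 genes, 17 passed through both genotypes, 13 passed through N2 alone and 3, srr-2, srsx-17 and srsx-30, through the mutant alone. A gene that passed through N2 alone had to be dimmer on a mutant array, and the 13 such genes had a median of -1.09, all below 0. No such gene had a probe well above background on all 4 mutant arrays. The sizes of their differences, here and below, thus rest in part on readings that missed that test. The 17 genes that passed through both had a median of -0.13, with 11 below 0. Of the 7 genes with an unadjusted limma p under 0.05, 4 were among the 13 and 3 among the 17. srz-39 and srw-20, whose genotypes did not overlap, were also among the 13. Shares over all targets are thus no like measure for such counts of members, here and below. The counts and medians over the measured genes are therefore a description and carry no test. Among all targets, 1.92% passed through N2 alone and 3.00% through the mutant alone.

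Most genes that missed the rule were not above background on any array. Their median difference was -0.09, with 266 of 340 below 0 (78.2%). All 6589 unmeasured targets also had a median of -0.09, with 69.7% below 0. When all 373 genes were fitted with no filter, 20 had an unadjusted p under 0.05 (5.36%, against 8.91% of all targets), 19 of them lower in the mutant, and 0 were called.

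**Figure D2:**
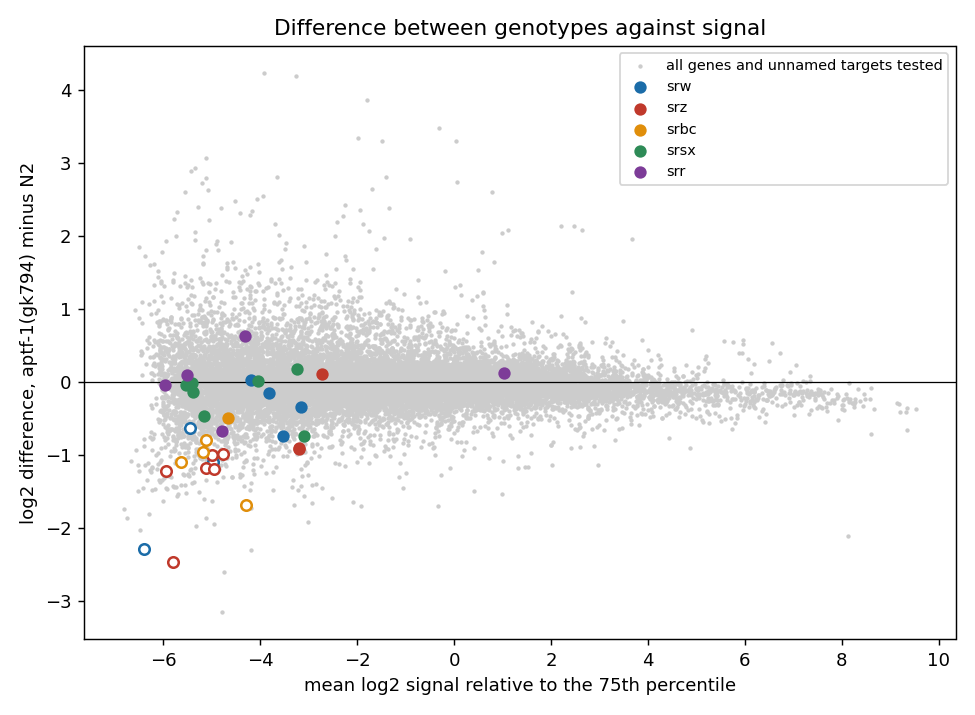
Log2 difference between genotypes (aptf-1(gk794) minus N2, y axis) against the mean log2 signal over the 8 arrays (x axis) for 18313 targets in grey and the 33 solo chemoreceptors in color by family. Open circles are the 13 genes that passed the filter through N2 alone. They include the 2 lowest differences, those of srz-39 and srw-20, and all 13 lie among the dimmer targets.

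The srz family held the gene with the smallest p. Of its 9 measured genes, 8 had differences below 0, with a family median of -0.99, and 6 of the 9 passed the filter through N2 alone. At an unadjusted p under 0.05, 3 were lower in the mutant, where 7.75% of all targets were. Of these 3 genes, srz-39 and srz-50 passed through N2 alone, which required a dimmer mutant array, and srz-82 through both genotypes. srz-39 (Y7A9C.4, chromosome IV) is annotated as a pseudogene. In N2, srz-39 read -4.55, -3.60, -5.41 and -4.72 in replicates 1 to 4, and in the mutant it read -6.54, -6.81, -7.79 and -7.0. Every mutant array lay below every N2 array. The difference was -2.46 ± 0.40 (SE), with an unadjusted p of 0.000282 and a limma adjusted p of 0.0922. Leaving out each array in turn kept the difference between -2.74 and -2.14 and the adjusted p between 0.118 and 0.287. Over 20 alternatives the adjusted p ranged from 0.0638, with the deposited values, to 0.875. The difference was -0.43 with normexp background correction, which compresses dim signals, and -1.73 with slide and linear position as terms. The size of this difference and its SE rest in part on readings at background in the mutant, as the single probes show.

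Only 3 of the 5 probes of srz-39 were measured. Probes 1 and 2 were not well above background on all arrays of either genotype and were not tested. Probe 3 read -4.99, -4.24, -6.10 and -5.56 in N2 and was well above background on 0 of 4 mutant arrays. This gave an approximate bound of a 2.59-fold lower signal in the mutant (adjusted p = 0.103). Probe 4 read -4.89, -3.72, -5.37 and -4.53 in N2 and was likewise well above background on 0 of 4 mutant arrays. Its approximate bound was 3.73-fold lower (adjusted p = 0.133). These bounds compare the N2 mean with, for each mutant array, the lowest signal that was well above background there or the probe's own reading, whichever was higher. They are no strict minimum, because a reading above that lowest signal could still miss the test. Probe 4 did so on mutant replicate 1, at -6.64 against -6.89. Probe 5 was well above background on 3 of 4 mutant arrays, with -5.78, -4.20, -6.39 and -5.80 against -3.77, -2.84, -4.76 and -4.08 in N2 (difference -1.68, adjusted p = 0.351). Its genotypes overlapped through mutant replicate 2. All 3 measured probes of srz-39 thus differed in the same direction, and the sizes of probes 3 and 4 are known only as approximate bounds.

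**Figure D3:**
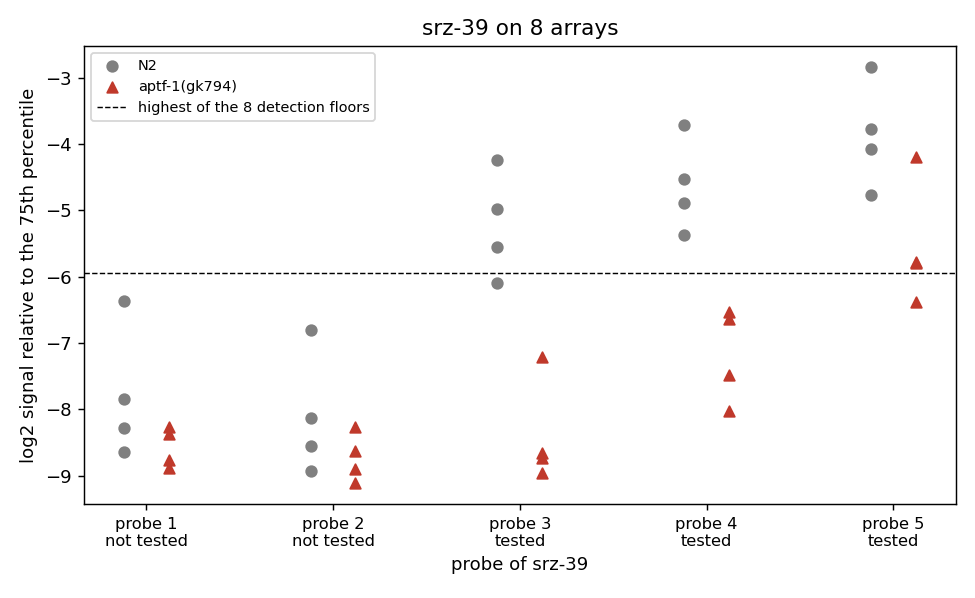
Log2 signal relative to the 75th percentile (y axis) of the 5 probes of srz-39 (x axis) on each of the 4 N2 and 4 aptf-1(gk794) arrays. The dashed line is the highest of the lowest well-above-background signals of the 8 arrays, -5.95; on probes 3 and 4 all mutant points lie below that line.

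srz-82 (C09G12.11, chromosome IV) was well above background on all 8 arrays. In N2, srz-82 read -2.26, -2.89, -3.05 and -2.78, and in the mutant -3.20, -4.12, -3.06 and -4.18. The groups did not overlap, but the array labelled as mutant replicate 3 lay just below N2 replicate 3. The mutant mean was 53.7% of N2 (difference -0.90 ± 0.30 (SE), adjusted p = 0.333), and without the arrays at position 4 the difference was -0.39. srz-81, a pseudogene directly next to srz-82, differed by -0.99 ± 0.81 (SE) with overlapping groups and passed through N2 alone. srz-78, with 3 genes between it and srz-82, differed by 0.11 ± 0.61 (SE). The 3 genes of this cluster thus did not all have the same sign. srz-81 and srz-78 were chosen after their values were seen. So was every other member named here outside the 5 of its family with the smallest p, except srbc-64 and srbc-66.

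For 3 other srz genes the signal was low on the arrays at position 4. srz-50 (T27C5.4, chromosome V), a pseudogene, read -4.34, -4.12, -5.07 and -4.48 in N2 and -4.84, -6.23, -4.74 and -6.17 in the mutant (difference -0.99 ± 0.40 (SE), adjusted p = 0.382). srz-85 (B0205.2, chromosome I) read between -5.51 and -5.12 in N2 and -5.62, -6.87, -5.44 and -8.28 in the mutant (difference -1.21 ± 0.58 (SE), adjusted p = 0.432). srz-23 (F58E2.9, chromosome IV) read between -5.03 and -4.01 in N2 and -4.25, -6.17, -4.56 and -7.19 in the mutant (difference -1.19 ± 0.63 (SE), adjusted p = 0.467). In each of these 3 genes mutant replicates 2 and 4 were the lowest of the 8 arrays. The mutant replicates at position 3 lay within the N2 range, except replicate 1 of srz-85, which was just below it. Without the arrays at position 4 the differences were -0.29, -0.19 and -0.05. With normexp on all arrays they were -0.20, -0.11 and -0.27. srz-88, a pseudogene directly next to srz-23, had the same 2 arrays lowest (difference -0.92 ± 0.51 (SE)).

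Of the 7 measured srw genes, 6 had differences below 0, with a median of -0.63, and 3 of the 7 passed the filter through N2 alone. At an unadjusted p under 0.05, 2 were lower in the mutant, beside 7.75% of all targets. Of these 2 genes, srw-20 passed through N2 alone, which required a dimmer mutant array, and srw-86 through both genotypes. srw-20 (T05E12.4, chromosome V) differed most. In N2, srw-20 read -5.24, -4.77, -5.59 and -5.42, and in the mutant -5.81, -7.67, -8.46 and -8.21. The genotypes did not overlap, mutant replicate 1 lay closest to N2, and that array was the only mutant array on which the probe was well above background. The genotypes differed by -2.28 ± 0.54 (SE; adjusted p = 0.21). Without mutant replicate 1 the adjusted p was 0.0363, and srw-20 then passed the threshold (1 of 33, beside 0.0273% of all targets). The probe was well above background on 0 of the 3 mutant arrays left. The same approximate bound put its signal there 2.36-fold lower than in N2, and the fitted difference of -2.86 is no measure of its size. Its adjusted p ranged from 0.0363 to 0.954 over 20 alternatives, and it was under 0.05 only in that one. With all 8 arrays the difference was -0.27 with normexp and -0.98 with slide and linear position as terms.

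srw-86 (C25F9.7, chromosome V) was well above background on all 8 arrays and read -2.89, -3.19, -2.86 and -3.71 in N2 and -3.95, -3.52, -4.33 and -3.79 in the mutant. The lowest N2 array lay below the highest mutant array, so the groups overlapped. The mutant mean was 60.1% of N2 (difference -0.73 ± 0.23 (SE), adjusted p = 0.31), and unlike most members the gene was lower on the mutant arrays at position 3 (-0.98) than on those at position 4 (-0.49).

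Other srw genes differed less clearly. srw-79 (T11F1.5, chromosome II) read between -4.79 and -4.10 in N2 and -4.76, -5.99, -4.49 and -6.88 in the mutant (difference -1.09 ± 0.50 (SE), adjusted p = 0.421). srw-83 (ZK262.6, chromosome V), with 3 measured probes that all differed in the same direction, read between -3.24 and -2.83 in N2 and -2.77, -3.66, -3.29 and -3.57 in the mutant (difference -0.33 ± 0.20 (SE), adjusted p = 0.507). In both genes the arrays at position 4 were the lowest of the 8. srw-134 (T05B4.7, chromosome V) read -4.54, -5.32, -5.38 and -5.27 in N2 and -5.24, -5.40, -5.33 and -7.05 in the mutant (difference -0.63 ± 0.42 (SE), adjusted p = 0.531), where 1 array of each genotype stood away from its group. srw-66 and srw-85 differed by -0.15 ± 0.13 (SE) and 0.03 ± 0.33 (SE).

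All 5 measured srbc genes had differences below 0, with a median of -0.95, and 4 of them passed the filter through N2 alone. srbc-33 (C02A12.10, chromosome V) read -3.15, -3.12, -4.06 and -3.49 in N2 and -4.07, -5.92, -3.68 and -6.90 in the mutant. Both arrays at position 4 were far below the others, whereas the array labelled as mutant replicate 3 lay within the N2 range. The difference was -1.69 ± 0.69 (SE), with an unadjusted p of 0.0396 and an adjusted p of 0.393, and it was -0.42 without the arrays at position 4. srbc-29, in the same cluster with 4 genes between them, was well above background on all 8 arrays and differed by -0.49 ± 0.41 (SE) with overlapping groups (adjusted p = 0.606).

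Among the remaining srbc genes, both arrays at position 4 were again the lowest of the 8 in srbc-58 and srbc-16, but not in srbc-46. srbc-58 (R09E12.2, chromosome V) read between -5.29 and -4.08 in N2 and -5.61, -5.87, -4.68 and -6.46 in the mutant (difference -0.95 ± 0.42 (SE), adjusted p = 0.408). srbc-16 (C45H4.1, chromosome V) read between -5.43 and -4.55 in N2 and -4.51, -7.29, -5.82 and -7.11 in the mutant (difference -1.09 ± 0.59 (SE), adjusted p = 0.471). Here the highest of all 8 readings was on mutant replicate 1. srbc-46 (ZC455.12, chromosome V), a pseudogene, read between -4.91 and -4.29 in N2 and -4.44, -5.03, -5.19 and -7.41 in the mutant (difference -0.79 ± 0.58 (SE), adjusted p = 0.563), where mutant replicate 4 was far below the other 7 arrays. Without the arrays at position 4 these differences were -0.44, -0.07 and -0.09.

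The srsx genes showed little difference, with a median of -0.04, and 0 of the 7 had an unadjusted p under 0.05, beside 12.2% of all targets. Of these 7 genes, 0 passed the filter through N2 alone and 2 through the mutant alone. Their median is therefore not like for like with those of srz, srw and srbc. srsx-3 (Y97E10B.9, chromosome V), which is known as a marker of the AWC olfactory neuron type called AWC-OFF, was well above background on all 8 arrays. In N2, srsx-3 read -2.94, -2.11, -3.51 and -2.37, and in the mutant -2.76, -3.92, -2.55 and -4.64. Mutant replicates 1 and 3 lay within the N2 range and both arrays at position 4 below it. The genotypes differed by -0.74 ± 0.51 (SE; adjusted p = 0.545), and the difference was 0.08 without the arrays at position 4. srsx-30 (C51E3.5, chromosome V), which passed through the mutant alone because N2 replicate 1 was at -6.26, read -4.23, -4.78 and -4.44 in the other N2 replicates and -4.64, -5.82, -5.42 and -5.68 in the mutant (difference -0.46 ± 0.46 (SE), adjusted p = 0.662).

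Among the other srsx genes, srsx-19 differed by -0.13 ± 0.18 (SE), srsx-34 by 0.18 ± 0.42 (SE) and srsx-17 by -0.04 ± 0.33 (SE), all with overlapping groups. srsx-25 and srsx-20 differed by 0.01 ± 0.14 (SE) and -0.01 ± 0.15 (SE). The mean of srsx-20 joined 2 measured probes with opposite signs, at 0.33 and -0.35. Of the 4 genes with more than 1 measured probe, srsx-20 was the only one whose measured probes disagreed in sign.

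Of the 5 families, the srr genes varied least between replicates, with a median residual SD of 0.29, and the median of their differences was 0.09. Here too 0 genes passed the filter through N2 alone, and 1 passed through the mutant alone. srr-6 (C13D9.1, chromosome V) was well above background on all 8 arrays. In N2, srr-6 read -4.28, -4.58, -4.52 and -4.41, and in the mutant -5.22, -5.38, -4.95 and -4.94. All 4 mutant arrays lay below all 4 N2 arrays, and those at position 3 (-0.64) and position 4 (-0.71) deviated alike. The mutant mean was 62.8% of N2 (difference -0.67 ± 0.13 (SE), unadjusted p = 0.000673, adjusted p = 0.12). Leaving out each array in turn kept the difference between -0.73 and -0.59, and the adjusted p over 21 alternatives ranged from 0.117 to 0.875. With slide and linear position as terms the difference was -0.57, and with normexp it was -0.19.

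srr-4 (K11D12.3, chromosome V), directly next to srr-6, did not share its difference. It read 0.69, 1.12, 1.12 and 0.96 in N2 and 1.06, 1.27, 1.01 and 1.07 in the mutant (difference 0.13 ± 0.12 (SE), adjusted p = 0.631). srr-1 (W07G4.6, chromosome V) had the highest difference of the 33 genes. In N2, srr-1 read -5.14, -4.40, -4.55 and -4.41, and in the mutant -4.32, -4.56, -3.45 and -3.65. Mutant replicates 1, 3 and 4 lay above every N2 array and replicate 2 within the N2 range, and the genotypes differed by 0.63 ± 0.28 (SE; adjusted p = 0.413). srr-2 and srr-3 differed by 0.09 ± 0.24 (SE) and -0.03 ± 0.19 (SE) with overlapping groups.

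**Figure D4:**
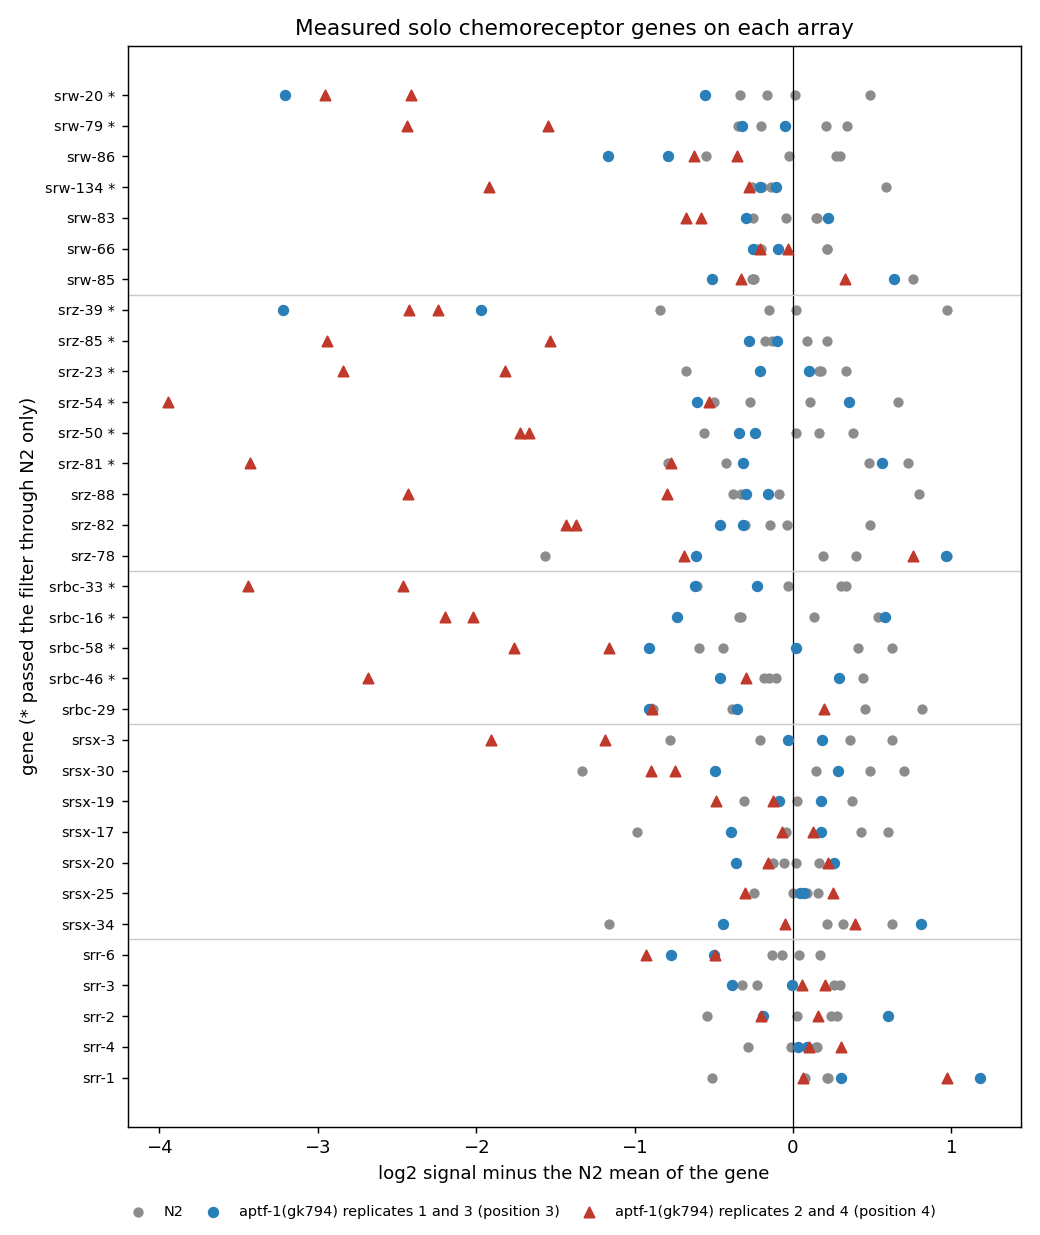
Log2 signal on each array minus the N2 mean of the gene (x axis) for the 33 measured solo chemoreceptor genes (y axis), grouped by family. Grey points are N2, blue points mutant replicates 1 and 3 at position 3, and red triangles mutant replicates 2 and 4 at position 4; an asterisk marks the 13 genes that passed the filter through N2 alone. In 12 genes both triangles lie left of the other 6 points, and in srz-39, srw-20, srz-82 and srr-6 all mutant points lie left of all N2 points.

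The mutant arrays were not alike across these genes. The median deviation from the N2 mean was -0.11 at position 3 and -0.82 at position 4. Both arrays at position 4 were the lowest of the 8 in 12 of 33 genes (36.4%, against 13.5% of all targets, 39.4% of the Sra and Srg genes and 29.6% of the Str genes), in 8 of the 13 genes that passed through N2 alone and in 4 of the 17 that passed through both. Both mutant arrays at position 3 lay below every N2 array in 5 of 33 genes (against 11.3% of all targets), namely srz-39, srw-20, srw-86, srz-82 and srr-6. By single arrays, mutant replicate 4 was the lowest for 14 genes, the array labelled as mutant replicate 3 for 6, N2 replicate 1 for 5 and mutant replicate 2 for 4. Highest readings fell most often on N2 replicate 2, for 12 genes.

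Fitted without both arrays at position 4, the 33 genes had a median difference of -0.11, with 23 below 0. In that fit 4 genes had an unadjusted p under 0.05, srz-39 (-2.59), srr-6 (-0.64), srw-86 (-0.98) and srw-20 (-1.88), which is 12.1% of the members against 7.93% of all targets, and 0 were called. These 4 genes were also among the 7 with all arrays. The median was -0.28 on slide 1 alone and -0.86 on slide 2 alone, with 23 and 29 genes below 0. Within slide 1, 5 of the 33 genes had an unadjusted p under 0.05 (5.55% of all targets), and within slide 2, 7 of the 33 (8.05% of all targets). With slide and linear position as terms the median changed sign to 0.25, with 12 genes below 0. The medians of the Str genes and of the Sra and Srg genes changed sign as well, to 0.08 and 0.23. For the solo genes, normexp background correction, which compresses dim signals, gave -0.14 with 26 below 0. What part position had in these differences cannot be told apart from genotype.

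**Figure D5:**
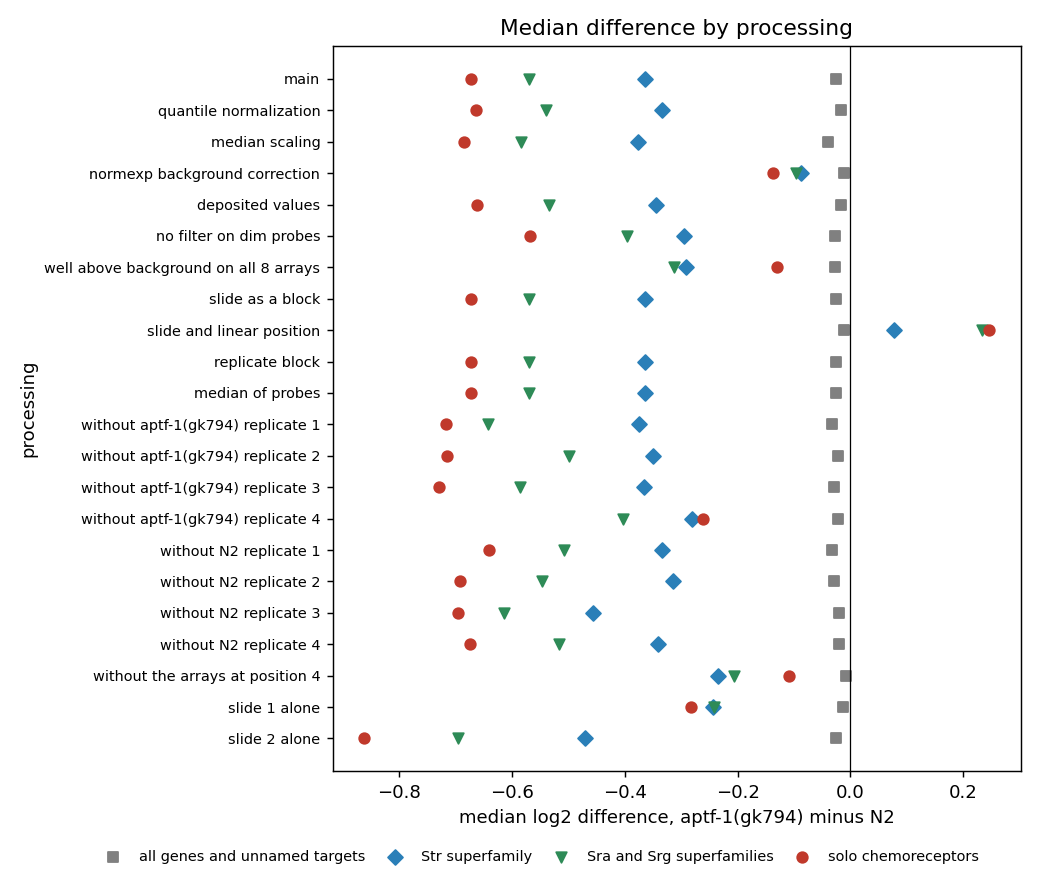
Median log2 difference, aptf-1(gk794) minus N2 (x axis), under each processing (y axis), for all targets (squares), the Str superfamily (diamonds), the Sra and Srg superfamilies (triangles) and the solo families (circles); the filter on all 8 arrays leaves fewer genes, and without a filter the same genes are plotted with all their probes. The solo median runs from -0.86 on slide 2 alone to 0.25 with a linear position term, while the plotted medians of all targets lie between -0.04 and -0.01. With the linear position term the Str median (0.08) and the Sra and Srg median (0.23) are above 0 too.

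The 2 chemoreceptor groups most like the solo families were set beside them, and the differences between groups were not tested. In the Str superfamily 71 of 697 genes were measured, with a median of -0.36 and 85.9% below 0. In the Sra and Srg superfamilies 66 of 505 were measured, with a median of -0.57 and 81.8% below 0, compared with 78.8% of the solo genes. Among genes that passed the filter through both genotypes, the medians were -0.30 in Str, -0.38 in Sra and Srg and -0.13 in the solo families. The spread between replicates was wide in the solo genes, with a median residual SD of 0.66 against 0.20 over all targets, 0.42 in Str and 0.55 in Sra and Srg. The groups also differed in level, with medians of -5.12, -1.37, -5.14 and -5.61 in the same order. Level here is the mean over all probes of a gene, whereas the spread is that of the kept probes. Genes that passed through N2 alone were 39.4% of the solo, 21.1% of the Str and 33.3% of the Sra and Srg genes. The part of level and filter in the spread was not tested.

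The genes that act with chemoreceptors gave 0 calls. Of a list of 31 genes for receptor trafficking, G protein signalling, channels and the control of receptor expression, 19 were measured, with a median of -0.06. Of these, 4 had an unadjusted p under 0.05, all lower in the mutant, beside 7.75% of all targets. hda-4, a histone deacetylase that controls chemoreceptor expression in C. elegans, differed by -0.54 ± 0.18 (SE, adjusted p = 0.337) without overlap between genotypes, and mef-2, a transcription factor of the same pathway, by -0.30 ± 0.11 (SE, adjusted p = 0.342). ocr-2 and osm-9, which encode subunits of a TRPV channel in olfactory and nociceptive neurons, differed by -0.49 ± 0.21 (SE, adjusted p = 0.402) and -0.62 ± 0.27 (SE, adjusted p = 0.407). kin-29, a kinase that acts upstream of hda-4 and mef-2, differed by 0.02 ± 0.12 (SE). odr-4 and odr-8, needed to bring some chemoreceptors to the cilia, differed by -0.06 ± 0.09 (SE) and 0.03 ± 0.09 (SE). The guanylyl cyclases odr-1 and daf-11, the channel subunits tax-2 and tax-4 and the G protein odr-3 were not measured.

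Genes of sensory cilia and of neurons were measured in both genotypes. Of 22 genes of sensory cilia 19 were measured, with a median of 0.04 and 0 with an unadjusted p under 0.05. All 12 neuronal marker genes were well above background on all 8 arrays, with a median of 0.05, and their summed level relative to the 75th percentile lay between 3.80 and 3.97 in N2 and between 3.83 and 4.19 in the mutant. Of these 12, egl-3 (0.28 ± 0.09 (SE)) and sbt-1 (0.25 ± 0.08 (SE)) were higher in the mutant without overlap, beside 3.1% of all targets. unc-64 was lower (-0.28 ± 0.12 (SE), unadjusted p = 0.0467 in limma, adjusted p = 0.406) with overlapping groups, and 0 of the 12 were called. All 6 intestinal markers had differences below 0, with a median of -0.30, and their summed level lay between 8.0 and 8.32 in N2 and between 7.67 and 7.83 in the mutant, without overlap. This sum is taken on the linear scale, so that asp-1, with a mean of 7.66 in N2 and 7.31 in the mutant, is most of it. Of the 6 markers by themselves, 3 were lower without overlap (elt-2, asp-1 and act-5), beside 5% of all targets, whereas ges-1, ifb-2 and vha-6 overlapped. The 5 muscle and 3 germline markers had medians of -0.10 and -0.02. Of 5 sperm markers 4 were measured (median -0.05), all 3 oocyte and yolk markers were measured in these larvae (median -0.36), and of 5 epidermal markers 3 were measured (median 1.55, range -0.44 to 2.05), while dpy-7 and bli-1 were not measured. Among the epidermal markers elt-3 was lower without overlap (-0.44 ± 0.09 (SE), limma adjusted p = 0.158), whereas rol-6 (2.05) and che-14 (1.55) overlapped. Of the 39 marker genes 36 were measured and 0 were called, and their part in the chemoreceptor differences was not tested.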

How the data were processed

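RNA of 4 N2 and 4 aptf-1(gk794) samples, replicates as labelled, was measured on 1 Agilent array each. The authors deposited scanner output with spot intensity on a linear scale (per the file headers, made by Agilent Feature Extraction 10.7.3.1), background-subtracted but not scaled between arrays. They also deposited a table of processed intensity with the same ranks (Spearman correlation 1) and with medians of 96.4 to 96.5, used only as an alternative. The methods refer to an earlier paper for the array analysis and give a fold threshold of 1.5, taken over here. Of 43603 probes, 34266 (78.6%) were named through the RefSeq table for WBcel235, giving 19794 genes; coordinates are left out because the array design used an earlier build.

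Control and outlier-flagged spots were left out, spots of a probe averaged, log2 taken and each array's 75th percentile subtracted. Probes well above background on all 4 arrays of a genotype were kept, and a gene is the mean of its kept probes. The scale is log2, so small differences of dim genes depend on background. The linear model had genotype alone (lmFit and eBayes of limma 3.58.1, R 4.3.3, two-sided), with Benjamini-Hochberg adjustment over 18313 genes and unnamed targets. The fit was tested on simulated data. Python 3.11.15, numpy 2.4.6, pandas 2.3.3 and matplotlib 3.10.9 did the rest. Arrays carry no counts, so their number limits the precision. Nothing in the labels shows that replicates came from separate cultures, although the methods call them biological samples, so p-values measure the spread between these samples.

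The members and gene lists were chosen with earlier results of these data known. Named genes are the 5 of each family with the smallest p, together with srbc-64 and srbc-66. Alternatives were quantile normalization, median scaling, normexp (offset 50, on the median spot signal because no mean signal is in the files, then quantile), the deposited values, other filters, the median of probes, slide, position or replicate terms, other thresholds and leaving out arrays; an unadjusted p without a fold limit was added after seeing the data. Same-numbered samples had residual correlations from -0.11 to 0.24, so the numbers were not taken to pair samples.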

Additional observations from a re-analysis of the deposited data

Results flagged for a closer look

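The named genes, the number of detected solo genes and the median deviation of the measured genes were checked in each genotype for an array that stood away from the other 3. A gap to the nearest array larger than Dixon's critical share of the group's range was found in 4 of 54 groups, where chance gives about 2.7. srw-134 was flagged in both genotypes. In N2 the gap was 0.862 of the range, with replicate 1 at -4.54 and the others between -5.38 and -5.27, and in the mutant it was 0.908, with replicate 4 at -7.05 and the others between -5.40 and -5.24. srz-23 had a gap of 0.831 in N2, with replicate 3 at -5.03 and the others between -4.19 and -4.01. srbc-46 had a gap of 0.882 in N2, with replicate 1 at -4.29 and the others between -4.91 and -4.84.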

How the results depend on the processing

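The count of 0 solo chemoreceptors called remained 0 under quantile normalization, median scaling, normexp, the deposited values, both other filters, the slide as a block, the linear position term, the median of probes, within each slide and without the arrays at position 4. It ranged from 0 to 1 when each array was left out, the 1 being srw-20 without mutant replicate 1 (adjusted p = 0.0363), where its probe was above background on 0 of the 3 mutant arrays left. It was 7 at an unadjusted p under 0.05, with or without the fold limit. The labels number replicates, and with the replicate block 0 members were called, 8 had an unadjusted p under 0.05 (12.6% of all targets) and the calls among all targets went from 11 to 0. Calls among all targets were 17 with normexp, 7 with median scaling, 2 without a filter, 24 with a filter on all 8 arrays, 2 to 5 when an array was left out, and 0 with the linear position term, within a slide or without the arrays at position 4. The cause was not tested.

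The median of -0.67 was -0.14 with normexp, -0.10 over all 373 genes without a filter (all targets -0.05), -0.13 over the 17 genes well above background on all 8 arrays, 0.25 with slide and linear position as terms, -0.11 without the arrays at position 4 and -0.28 on slide 1 alone. Leaving out each array gave -0.73 to -0.26, the latter without mutant replicate 4. Among the 25 named genes, 475 of the alternative values kept their direction and side of the threshold, 1 passed it (srw-20, above) and 35 changed sign, all of them for differences that were not called.

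With slide and linear position as terms, 15 changed sign, to 1.27 (srw-79), 0.15 (srw-83), 0.71 (srw-134), 0.46 (srz-82), 0.96 (srz-50), 0.87 (srz-85), 1.59 (srz-23), 1.48 (srbc-33), 0.25 (srbc-58), 1.14 (srbc-16), 0.95 (srbc-46), 0.49 (srbc-29), 1.30 (srsx-3), -0.15 (srr-4) and 0.20 (srr-3). Without the arrays at position 4, srsx-3 was at 0.075 and srsx-19 at 0.044. On slide 1 alone, srsx-30 was at 0.29, srsx-19 at 0.056, srsx-17 at 0.29 and srr-3 at 0.13, and on slide 2 alone, srr-4 was at -0.00084 and srr-2 at -0.17. srr-3 was at 0.031 with quantile normalization and at 0.030 with the deposited values. When each array was left out, srsx-34 ranged from -0.21 to 0.39, srsx-17 from -0.37 to 0.16, srr-2 from -0.088 to 0.19 and srr-3 from -0.14 to 0.084. Most members lay near background, which limits how far their differences can be read.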
